A study of Homo sapiens with 4 samples.

Results

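The B-cell receptor and the signalling proteins next to it were represented by 9 genes, CD79A, CD79B, CD72, CD22, SYK, BTK, LYN, BLNK and PRKCB. They were chosen by name, as every array feature whose gene symbol in the platform annotation was 1 of these 9. This gave 67 of the 15154 features of the value table, and 9 of the 4603 genes with a symbol there. RNA of OCI-Ly10 cells that had received a siRNA pool against MYC at 4 uM was compared with control RNA on 4 arrays with 2 channels. OCI-Ly10 is an established line of human diffuse large B-cell lymphoma, and MYC is a transcription factor of growth and proliferation. For 2 arrays (8 h and 24 h) the control cells carried a Renilla luciferase siRNA as a nonspecific sequence, called control siRNA here. For the other 2 arrays (6 h and 24 h) the control cells carried no siRNA. All cells, controls included, were electroporated in the same solution. Both channels hold the same line, and there is 1 array per control and time.

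The antigen receptor of B cells is a membrane immunoglobulin bound to the signalling chains Ig-alpha and Ig-beta, which CD79A and CD79B encode. Upon antigen binding, the Src family kinase LYN phosphorylates tyrosines in the tails of these chains, SYK docks there, and the scaffold protein BLNK brings BTK to phospholipase C gamma. Protein kinase C beta, encoded by PRKCB, then passes the signal on towards NF-kappaB, while CD22 and CD72 are surface receptors that recruit phosphatases and restrain the signal. Lymphomas of the activated B-cell type are known for their dependence on this pathway.

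The values were log2 ratios per feature and array, taken as MYC siRNA (Cy5) over control (Cy3), so that values above 0 mean more transcript with MYC siRNA. No label states the log base or the direction, which were inferred from the values, the dyes and MYC itself. Per-array values are given early array first within each control. MYC averaged -0.89 ± 0.39 (SD, n = 4) under that direction. The ratios do not give the level of a transcript, so abundances of the 9 genes cannot be compared with each other, and whether B-cell markers are present at all in these cells cannot be read from them. In bulk RNA, fewer cells of a type and less RNA per cell cannot be told apart. A median log2 ratio between -0.034 and 0.014 was found on the arrays. The standard deviation over features was widest, 0.447, on the 24 h array against no siRNA, and between 0.288 and 0.327 on the others.

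Upstream sequence is shown for CD79A and CD72, the genes that passed the test as higher, and for BLNK, the 1 gene of the 9 below 0 on every array. They are shown because MYC, with its partner MAX, is known to bind the E-box CACGTG, which is 1 form of the wider E-box motif CANNTG. Each stretch holds the 250 bases before the transcription start in RefSeq (GRCh38.p14), written 5′ to 3′ on the strand of the gene, with matches to CANNTG on both strands in capitals. The stretch of CD79A is chr19:41877029-41877278 (plus strand), that of CD72 chr9:35618414-35618663 (minus strand) and that of BLNK chr10:96271570-96271819 (minus strand).
CD79A: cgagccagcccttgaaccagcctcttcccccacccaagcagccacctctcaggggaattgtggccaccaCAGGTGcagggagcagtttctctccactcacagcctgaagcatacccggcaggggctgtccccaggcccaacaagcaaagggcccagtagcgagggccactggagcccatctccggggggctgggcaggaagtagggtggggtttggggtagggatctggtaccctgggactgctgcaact
CD72: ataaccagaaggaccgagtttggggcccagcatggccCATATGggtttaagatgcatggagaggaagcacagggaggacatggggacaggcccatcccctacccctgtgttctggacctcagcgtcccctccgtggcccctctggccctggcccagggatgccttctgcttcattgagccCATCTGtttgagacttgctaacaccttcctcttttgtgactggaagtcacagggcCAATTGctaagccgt
BLNK: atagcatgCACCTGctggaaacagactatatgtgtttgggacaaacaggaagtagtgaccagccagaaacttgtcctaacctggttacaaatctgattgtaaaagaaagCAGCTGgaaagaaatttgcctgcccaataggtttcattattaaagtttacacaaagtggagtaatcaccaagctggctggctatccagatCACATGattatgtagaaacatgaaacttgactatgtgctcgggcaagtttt
CANNTG matched 1 time in CD79A and 3 times each in CD72 and BLNK. Over all 35116 such windows of the table, 61.8% held CANNTG and 6.34% held CACGTG. An entry was used for 7 of the 9 genes, with 10 windows in all, of which 7 held CANNTG and 0 held CACGTG. CD79B had no entry, and LYN was left out by its chromosome, a filter not applied to the 35116 windows. Neither gene was searched. The motifs overlap by definition, and a match here is a description of letters, not of binding.

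Both genes that passed the test in the mean over the 4 arrays rose with MYC siRNA, CD79A to 133% and CD72 to 133% of control. MYC siRNA was in Cy5 on every array. A dye effect on a feature therefore cannot be told apart from an effect of MYC siRNA, here and for every other call of a mean. The other 7 genes did not pass (limma, Benjamini-Hochberg adjusted p under 0.05 over 6798 rows). SYK and CD79B lay above 0 and BLNK below 0 on all 4 arrays without passing. Set beside all rows tested, 15.8% passed in either direction, 5.56% as higher and 10.2% as lower, and the 2 of 9 genes that rose make up 22.2%. Of the 6798 rows 3954 are named genes and the others single features, and no share was computed for named genes alone. With 9 genes, 1 gene more or less moves that share widely, and no test was made of it. The median of the 9 mean log2 ratios was 0.15, against -0.003 over all rows.

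**Figure D1:**
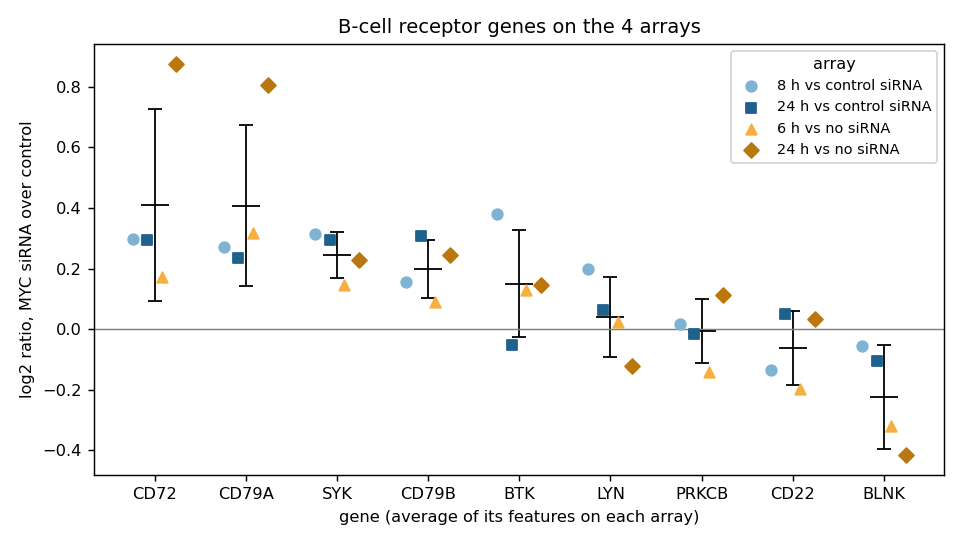
Log2 ratio of MYC siRNA over control (y axis) for each of the 9 genes, averaged over its features, on the 4 arrays (points), with the mean (bar) and SD (whiskers, n = 4). CD72 and CD79A have the highest means (0.41 each) and their highest values on the 24 h array against no siRNA, while BLNK is below 0 on each array.

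CD79A, the Ig-alpha chain, had log2 ratios of 0.27 and 0.24 on the control-siRNA arrays, then 0.32 and 0.81 on the no-siRNA arrays. All 4 arrays lay above 0, and the last stood well apart from the other 3. The mean was 0.41 ± 0.27 (SD, n = 4; limma adjusted p = 0.039). Without the 24 h array against no siRNA it was 0.28, and limma's adjusted p was 0.103. Dropping any other single array left a mean between 0.44 and 0.47, but again no call (adjusted p from 0.0711 to 0.0871), with 1 residual degree of freedom fewer.

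CD79B, the Ig-beta chain that pairs with the product of CD79A, had 0.15 and 0.31 on the control-siRNA arrays, then 0.09 and 0.24 on the no-siRNA arrays. Its arrays lay close together, all above 0, and the 24 h value was the higher of the pair against either control. The mean of 0.20 ± 0.096 (SD, n = 4) did not pass (limma adjusted p = 0.128). The 95% interval of that mean in limma, not adjusted for the number of genes, ran from 0.009 to 0.389. The means of the 2 chains were not tested against each other.

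CD72, an inhibitory coreceptor of the C-type lectin kind, had 0.30 and 0.29 on the control-siRNA arrays, then 0.17 and 0.88 on the no-siRNA arrays. As for CD79A, the highest value came from the array with the widest spread of all features. The mean was 0.41 ± 0.32 (SD, n = 4; limma adjusted p = 0.0482). Without that 24 h array the mean was 0.26 (adjusted p = 0.124), and without any other single array between 0.45 and 0.49, with adjusted p from 0.0746 to 0.102. CD72 also fell out when rows with a value on at least 3 arrays were tested along with the complete ones (adjusted p = 0.0578).

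CD22, the sialic acid binding inhibitory receptor of B cells, had -0.14 and 0.05 on the control-siRNA arrays, then -0.20 and 0.03 on the no-siRNA arrays. The early arrays were below 0 and both 24 h arrays just above it. The mean of -0.06 ± 0.12 (SD, n = 4) did not pass (limma adjusted p = 0.632), with a 95% interval from -0.259 to 0.134. The 2 inhibitory receptors thus lay on different sides of 0, which was not tested as a difference.

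Among the tyrosine kinases, SYK had the highest mean log2 ratio. It stood at 0.32 and 0.30 on the control-siRNA arrays, then 0.15 and 0.23 on the no-siRNA arrays. The spread was the smallest of the 9 genes, and the arrays against control siRNA were the higher ones. The mean of 0.25 ± 0.076 (SD, n = 4) corresponded to 119% of control and missed the threshold (limma adjusted p = 0.0719). Its 95% interval ran from 0.06 to 0.433. With time and control kind as terms, the adjusted p was 0.0503.

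BTK, the Tec family kinase downstream of SYK, had 0.38 and -0.05 on the control-siRNA arrays, then 0.13 and 0.15 on the no-siRNA arrays. The 8 h array was the highest and 1 array lay below 0. The mean was 0.15 ± 0.18 (SD, n = 4; limma adjusted p = 0.277), and 0.07 without the 8 h array. LYN, which acts on activating and inhibitory tails alike, had 0.20 and 0.06 on the control-siRNA arrays, then 0.02 and -0.12 on the no-siRNA arrays. Its mean of 0.04 ± 0.13 (SD, n = 4) was smaller than its spread (adjusted p = 0.771) and turned to -0.01 without the 8 h array. The 95% interval for LYN was -0.159 to 0.239.

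BLNK, the scaffold that joins SYK to BTK, had -0.06 and -0.10 on the control-siRNA arrays, then -0.32 and -0.42 on the no-siRNA arrays. All values were below 0, and those on the no-siRNA arrays were the lower ones. The mean of -0.22 ± 0.17 (SD, n = 4), 85.6% of control, did not pass (limma adjusted p = 0.124). PRKCB had 0.02 and -0.02 on the control-siRNA arrays, then -0.14 and 0.11 on the no-siRNA arrays. Its values lay on both sides of 0, with a mean of -0.01 ± 0.11 (SD, n = 4; adjusted p = 0.96) and a 95% interval from -0.2 to 0.185.

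In descending order the mean log2 ratios ran CD72, CD79A, SYK, CD79B, BTK, LYN, PRKCB, CD22 and BLNK. Each neighbouring pair in that order differed by less than the larger of its 2 SDs over arrays. Of the 9 genes, 4 were above 0 on all arrays (19.4% of all rows were) and 1 was below 0 on all (23.3% of all rows). With 4 arrays an exact sign-flip permutation test of 1 gene cannot go below a two-sided p of 0.125, which these 5 genes reached.

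The single features behind the averages did not all point the same way. Of the 67 features, 51 had a value on every array, 15 on some and 1, of PRKCB, on none. Among the 51, 9 were called higher (17.6%, against 7.09% of 10161 complete features) and 3 lower (5.88%, against 12.3%), each tested by itself in limma. Features of 1 gene share its transcript, so these are not independent counts. Of all 241 member values, 144 were above 0, a share that was not counted over all features. The values were uneven over genes, with 54 from PRKCB, 43 from CD79B and 7 from CD72.

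**Figure D2:**
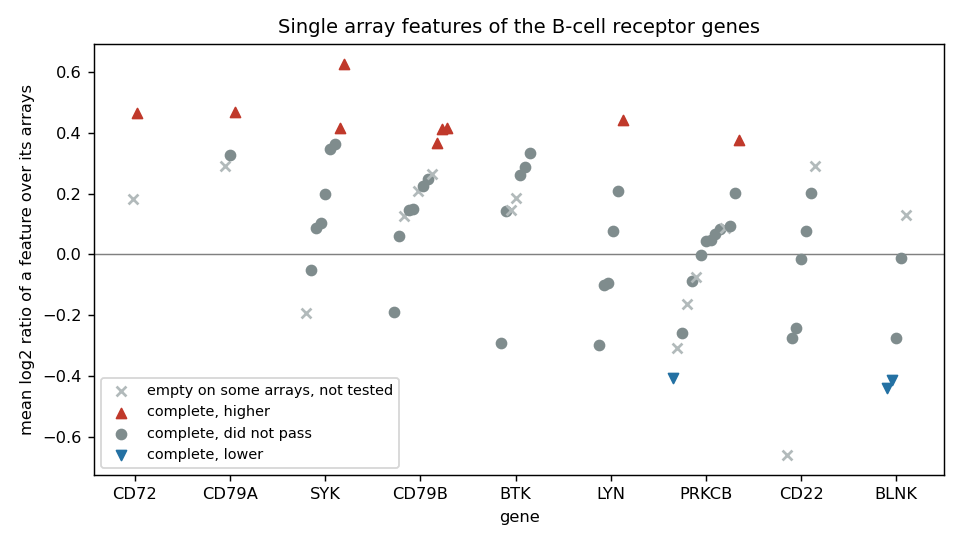
Mean log2 ratio over arrays (y axis) of each of the 66 features with a value, by gene (x axis), in the order of the gene means. Triangles mark features called higher (9) or lower (3) in limma, circles complete features that did not pass, and crosses features with empty arrays, which were not tested. PRKCB has a feature called in each direction.

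Every one of the 10 values of CD79A, from 3 features, and of the 7 values of CD72, from 2 features, lay above 0. In CD79A, feature 24391_1 had 0.42, 0.41, 0.20 and 0.85 (control-siRNA arrays first) and was called higher. Feature 16148_1 of the same gene had 0.05, 0.07, 0.43 and 0.76 in that order and did not pass. The arrays against control siRNA thus differed widely between the 2 features of CD79A, while both were highest on the same array. In CD72, feature 27990_1 (0.37, 0.30, 0.31 and 0.88) was called higher, and feature 17742_1 was empty on the array with that highest value.

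CD79B had 12 features, of which 11 had a mean above 0 and 3 were called higher. Feature 34952_1 had 0.59, 0.44, 0.32 and 0.31 in the same order of arrays, and feature 23866_1 had 0.18, 0.67, 0.28 and 0.53. Feature 35041_1 averaged 0.37, and feature 34983_1, the 1 with a mean below 0, averaged -0.19. The called features averaged from 0.37 to 0.42, above the gene average of 0.20. In SYK, 7 of 9 features averaged above 0. Feature 29888_1 had 0.51, 0.40, 0.73 and 0.87 and feature 24540_1 had 0.55, 0.46, 0.23 and 0.43, both called higher. Of the other 7 SYK features, 6 did not pass and 1 was not tested.

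In BLNK, 4 of 5 features averaged below 0 and 2 were called lower. Feature 33109_1 had -0.54, -0.35, -0.27 and -0.59 and feature 33256_1 had -0.19, -0.64, -0.46 and -0.37. Feature 33509_1 of BLNK was above 0 against control siRNA (0.40 and 0.30) and below 0 against no siRNA (-0.35 and -0.40). The other complete features of BLNK lay below 0 on all 4 arrays.

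PRKCB had features called in both directions, 34136_1 higher (0.20, 0.33, 0.26 and 0.71) and 32251_1 lower (-0.33, -0.46, -0.27 and -0.57). It was 1 of 34 genes on the array of which this was true. Only a gene with several complete features can be called both ways, and PRKCB had 11. Means above 0 were found for 8 of its 15 features with a value. LYN had 3 of 6 means above 0, with feature 22092_1 called higher (0.29, 0.48, 0.28 and 0.73), and feature 16173_1 at 0.20, -0.35, -0.17 and -0.86. Of the 7 CD22 features 3 averaged above 0, with 0 called, and of the 7 BTK features 6 did, with 0 called.

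Over 814 genes with at least 3 complete features, the median SD of feature means within a gene was 0.187. It was 0.211 as the median of the 7 such members, from 0.194 for CD79B to 0.262 for LYN. The SDs of the 7 members lay between the 52.3 and 76.2 percentile of these genes. Which transcript or stretch a feature holds is not in the sources used here.

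Time and kind of control were compared as 2 terms of 1 limma model with 1 residual degree of freedom. Experiment identifiers in the labels fall into 2 ranges, 1 for each control kind, and a batch behind them cannot be told apart from the control. For 24 h against 6 and 8 h, 0 of 9 genes passed, against 0.118% of all rows, and 0 had an unadjusted p under 0.05. For no siRNA against control siRNA, 0 of 9 passed, against 0.0883% of all rows, and 0 had an unadjusted p under 0.05.

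**Figure D3:**
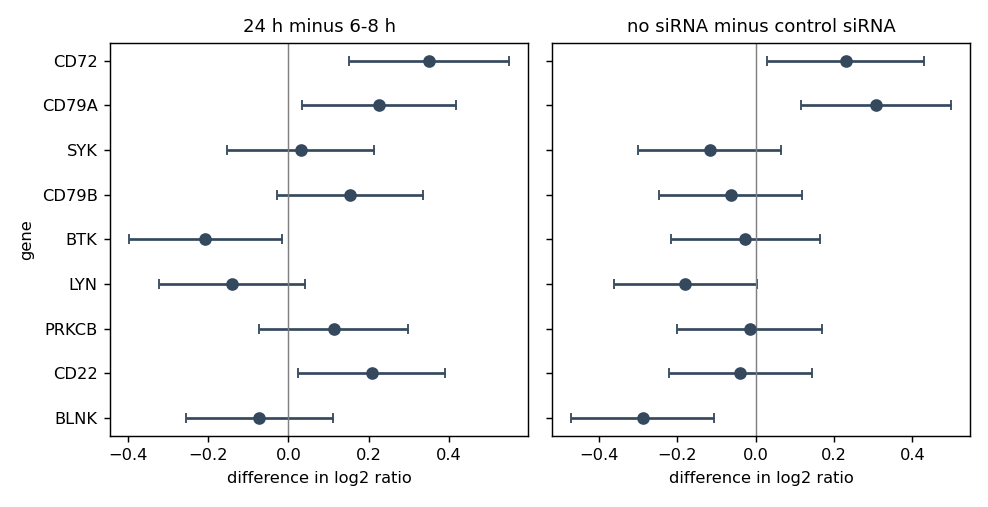
Difference in log2 ratio (x axis) between 24 h and the early arrays (left) and between arrays against no siRNA and against control siRNA (right) for each gene (y axis), with its standard error from limma. In the scaling shown, CD72 lies furthest from 0 for time (0.35) and CD79A for control (0.31), while with arrays brought to 1 spread these are BTK (-0.26) and BLNK (-0.26). None of the differences passed in either scaling. The CD72 value lacks feature 17742_1 on the 24 h array against no siRNA.

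The CD72 log2 ratio averaged 0.24 on the early arrays and 0.59 at 24 h, a difference of 0.35 (SE 0.20, limma adjusted p = 0.631). Part of this CD72 difference comes from an empty feature. Feature 17742_1 had 0.225 and 0.037 on the early arrays, below feature 27990_1 (0.37 and 0.31). It was empty on the 24 h array against no siRNA, where CD72 rested on 27990_1 alone (0.877). For CD79A the means were 0.30 and 0.52, a difference of 0.23 (SE 0.19). With the arrays brought to 1 spread, these differences were 0.20 for CD72 and 0.07 for CD79A. BTK went the other way, with 0.25 early and 0.05 late (difference -0.21, SE 0.19). By control, CD79A averaged 0.25 against control siRNA and 0.56 against no siRNA, a difference of 0.31 (SE 0.19, adjusted p = 0.663), and BLNK -0.08 and -0.37, a difference of -0.29 (SE 0.18). In BLNK, feature 33509_1 had 0.40 and 0.30 against control siRNA, then -0.35 and -0.40 against no siRNA. Feature 29385_1 had 0.16 and 0.43, then was empty at 6 h and -0.20 at 24 h. Values of the other BLNK features, both called ones included, overlapped between the controls. Of the 9 control differences with 1 spread, that of BLNK (-0.26) was the furthest from 0, ahead of CD79A (0.21), and CD72 was at 0.10. These standard errors rest mostly on the spread pooled over all rows, and differences of this size were not detectable with 4 arrays.

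A further 99 genes of the pathway had a value on all arrays, out of 106 on the array. Of these, 5 rose, 2 fell and 92 did not pass, and their median log2 ratio was 0.03. Over all rows 5.56% rose and 10.2% fell, so that the share of these genes that rose was near the background and the share that fell was below it. The same background holds for each list that follows. The 9 genes and these 99 share arrays and controls, and the lists were not tested against each other.

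**Figure D4:**
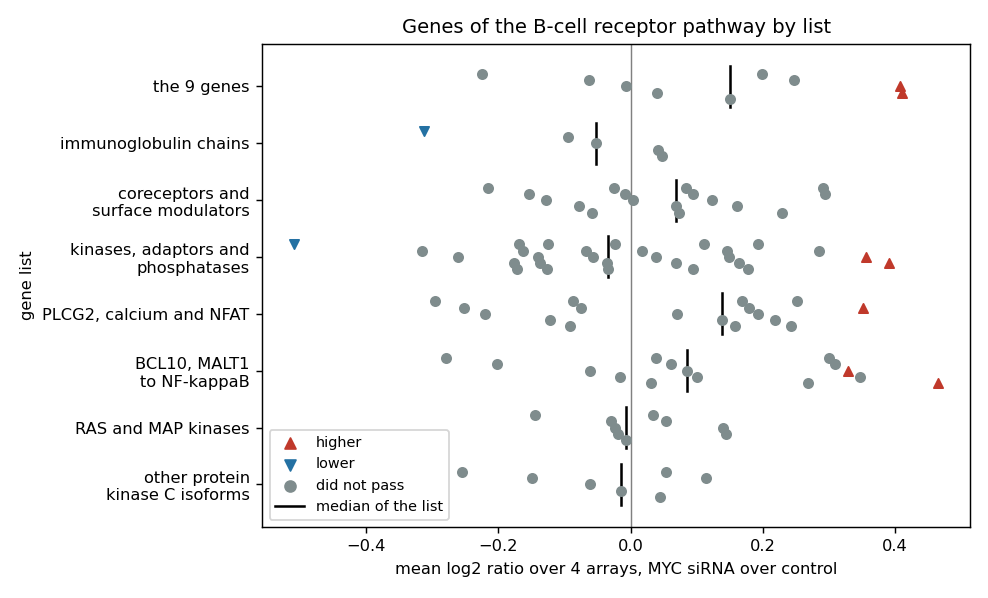
Mean log2 ratio over 4 arrays (x axis) of the 9 genes and of the 99 other pathway genes in 7 lists (y axis). Triangles mark genes called higher or lower in limma, circles those that did not pass, and vertical bars list medians, which run from -0.05 (immunoglobulin chains) to 0.15 (the 9 genes).

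Among 29 measured kinases, adaptors and phosphatases next to the receptor, 2 rose, 1 fell and 26 did not pass (median -0.03), with the share that rose near the 5.56% of all rows. INPP5D, which encodes the lipid phosphatase SHIP1, had 0.53 and 0.51 against control siRNA and 0.22 and 0.30 against no siRNA, early array first. It was higher on all arrays, with a mean of 0.39 ± 0.16 over 6 features (SD, n = 4; limma adjusted p = 0.0276). DOK1, an adaptor that dampens signalling, averaged 0.36 ± 0.16 (adjusted p = 0.0351), and PDPK1, a kinase that activates AKT, -0.51 ± 0.30 (adjusted p = 0.026), from 1 feature each. PIK3CB at -0.31 and LCK at 0.28 were the next largest and did not pass.

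Of 15 genes from BCL10 and MALT1 to NF-kappaB, 2 rose, 0 fell and 13 did not pass (median 0.08). This stands beside 5.56% of all rows that rose and 10.2% that fell, and the shares were not tested. IKBKG, the regulatory subunit NEMO of the IKK complex, averaged 0.47 ± 0.24 from 1 feature (SD, n = 4; limma adjusted p = 0.0252), and REL, the NF-kappaB subunit c-Rel, 0.33 ± 0.17 from 4 features (adjusted p = 0.0452). IKBKG has a near-identical pseudogene, so its feature may read both. NFKBIB (0.35) and MALT1 (0.31) did not pass. Without the 8 h array both did (0.49 and 0.46, limma adjusted p = 0.0423 and 0.0451), but not without any other single array. REL did not pass with the median over features (0.27, adjusted p = 0.126), nor did REL (adjusted p = 0.0548) and IGLL1 (adjusted p = 0.0586) when rows with 3 values were tested too.

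In the list of phospholipase C gamma, calcium and NFAT, 1 of 17 rose and 16 did not pass (median 0.14). This was VAV3, a guanine nucleotide exchange factor, at 0.35 ± 0.17 (SD, n = 4; limma adjusted p = 0.0371), and PLCG2 itself was at 0.07. ITPR2 (-0.30) and PPP3CA (-0.25) were next in size and did not pass. Of 5 immunoglobulin chain genes, IGLL1, the surrogate light chain, fell (-0.31 ± 0.16, SD, n = 4; adjusted p = 0.0487), a gene close in sequence to lambda constant chains, and 4 did not pass, with IGHM at -0.10 and IGHD at -0.05 (median -0.05).

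Among 17 coreceptors and surface modulators 0 passed (median 0.07), with LAIR1 at 0.29 and CD38 at 0.29. LAIR1 was at 0.13 without the 24 h no-siRNA array. CD38 had 0.59 and 0.89 on the control-siRNA arrays, then -0.001 and -0.32 on the no-siRNA arrays, and its mean ran from 0.09 to 0.49 with 1 array left out. The CD38 difference between controls, -0.90, did not pass (limma adjusted p = 0.074). The 9 measured RAS and MAP kinase genes (median -0.01, with RASGRP1 at -0.14 and SOS1 at 0.14) and the 7 other protein kinase C isoforms (median -0.02, with PRKCI at -0.25 and PRKCE at -0.15) had 0 calls each in limma. The PRKCI mean rested on the 24 h no-siRNA array (-1.01) and was -0.002 without it. With any 1 array left out, between 0 and 3 pathway genes were called. Of the 7 named above, PDPK1 was still called when the 8 h array was left out (-0.58, adjusted p = 0.0464).

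Markers of other cell types had list medians of 0.09 and 0.15, the latter equal to that of the 9 genes. Of 12 measured T cell markers 9 had a mean above 0 and 0 passed (median 0.09, and from -0.08 to 0.12 by array), with CD4 at 0.33 and CD3E at 0.23. All 4 measured monocyte markers were above 0 and 0 passed (median 0.15, and from -0.01 to 0.28 by array, highest on the 24 h array against no siRNA), with FCGR1A at 0.24 and CD68 at 0.17. Of 14 B lineage markers 7 had a mean above 0 and 0 passed (median 0.02), with SPIB at 0.26 and CIITA at 0.22 furthest from 0. The part of these shifts in the values of CD79A and CD72 was not tested.

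Likeness of pattern was measured as the root mean square difference in log2 ratio over the 4 arrays, among 3953 other named genes. Nearest to CD79A were CHST11 (0.041), GAS2L3 (0.054) and GSTA2 (0.06). Nearest to CD72 were CYB561A3 (0.043), TCP11L2 (0.064) and SIN3A (0.07). With 4 points, likeness of this degree is a description of these arrays.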

How the data were processed

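RNA was measured on 4 arrays with 2 channels, MYC siRNA in Cy5 and control in Cy3 per the labels, with 0 dye swaps. The values are the authors' processed log2 ratios as deposited in the value table. How signals were corrected and scaled, and why cells are empty, is not stated in the labels. Gene symbols came from the platform annotation and were checked through Entrez IDs in a RefSeq table (GRCh38.p14), which changed 0 of them. Features of 1 symbol were averaged on each array, leaving 6798 complete rows, of which 3954 are named genes. The mean over arrays was tested against 0 with limma 3.58.1 (R 4.3.3; lmFit and eBayes, 3 residual and 6.31 prior degrees of freedom). Time and control kind were terms of a second model (1 residual and 17.5 prior degrees of freedom). The threshold was an adjusted p of 0.05 (Benjamini-Hochberg, all 6798 rows). Single features were fitted likewise.

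The 9 genes and the lists were chosen with earlier results of these data known. Named genes were the 9 members, MYC, list genes past the test plus up to 2 more of each list by size of mean, and the 3 genes nearest in pattern to each member that passed. PLCG2 was named outside that rule, after its value was seen. The labels do not say whether arrays came from separate cultures. The arrays also differ in time and control, without a repeat of any condition. The SDs and the p-values of the mean thus hold these differences together with noise, which may be technical. The number of arrays limits the precision, with a median standard error of 0.0951. The code was tested on simulated data.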

Additional observations from a re-analysis of the deposited data

Results flagged for a closer look

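Among 9 gene averages and 51 complete features, there were 4 in which 1 array lay apart from the other 3 by Dixon's criterion at its 95% critical value. For normal values of equal spread chance gives this in about 1 in 20. The 24 h array against no siRNA had a wider spread (SD 0.447) than the others, so that rate need not hold for it. Gene averages also contain the features tested, and no rate over all features was computed. The CD79A average was 0.805 on the 24 h array against no siRNA, with the others between 0.24 and 0.32. CD72 feature 27990_1 was 0.877 on the same array, with the others between 0.30 and 0.37. Of CD22, features 27983_1 (-0.379, others from -0.20 to -0.19) and 31957_1 (-0.536, others from -0.21 to -0.18) both stood apart on the 8 h control-siRNA array. The CD22 gene average did not meet the criterion.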

How the results depend on the processing

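Means of the 9 genes kept their side of 0 and of the threshold in 96 of 108 comparisons with an alternative. The alternative with symbols as given by the platform annotation changed 0 symbols, so it had to repeat the main result. Genes that did not pass are pooled in that count with the 2 that did. CD79A kept its call in 8 comparisons and lost it in 4, and CD72 kept it in 7 and lost it in 5. With any 1 array left out, limma called 0 of the 9 genes (3 or 4 at an unadjusted p under 0.05), 0 to 3 of the other pathway genes (14 to 17 unadjusted), 0 to 441 of all rows (1796 to 2179 unadjusted) and 238 to 1245 single features. When rows with 3 values were tested too, 1 of the 9 genes was called, CD79A. With time and control kind as terms, 1980 rows and 17 other pathway genes were called, and the same count of 2 among the 9. The sign of means near 0 turned for PRKCB (0.015 over complete features, and from -0.047 to 0.038 with 1 array left out), LYN (from -0.012 to 0.095 with 1 array left out) and, outside the 9 genes, IGHD (from -0.12 to 0.021 with 1 array left out).

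Counts over all rows for time (8) and control kind (6) depended on the setting. They were 61 and 87 with centred arrays (64.4% of the latter lower, against 100% of 6), 98 and 162 with the median over features, and 26 and 37 over complete features. With arrays brought to 1 spread they were 0 and 0 in limma (590 and 679 unadjusted), and with robust eBayes 5 for time. Small differences of the 9 genes turned sign. For time these were SYK (-0.022) and BLNK (0.021) with 1 spread. For control kind these were BTK (0.0055) and PRKCB (0.017) with centred arrays, CD79B (0.070) and BTK (0.060) with the median, and CD22 (0.074) and BTK (0.031) over complete features. Time and control terms were not fitted without single arrays, since no residual degree of freedom is left. Each ratio already pairs MYC siRNA with control RNA on 1 array, and the time term was fitted within control kind. With 1 spread, the time differences of CD79A (0.072 against 0.23) and CD72 (0.20 against 0.35) and the control difference of CD72 (0.10 against 0.23) shrank by over 1.5 times. Signal over background of single features is not known here.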
